A study of Mus musculus with 17 samples.

Results

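Resting MutuDC, cells of a dendritic cell line that received no LPS, were compared between 3 libraries labelled Vkine and 2 labelled EV. These are 5 of the 17 mouse samples of the series. The libraries were picked by their labels, but the comparison was chosen with earlier results of these data known. Of 54532 genes in the count table, 13357 passed a low-count filter, and all of them enter the description. The study asks how remodelling of the tumour matrix acts on dendritic cells. Versikine is a fragment that metalloproteases cut from versican, a proteoglycan of the extracellular matrix. Vkine stands for versikine in the labels, and EV, which often abbreviates empty vector, names the other arm. The labels do not tell how Vkine reached the cells, or how much LPS was used and for how long. A further 6 MutuDC libraries carry the same labels with LPS, a bacterial lipopolysaccharide that activates dendritic cells (3 EV with LPS and 3 Vkine with LPS). They share the estimate of the spread and are shown beside the resting libraries where the difference itself was tested. The other 6 samples are CD45+ cells and were not used here.

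MutuDC is a single line, derived from spleen tumours of mice that express the SV40 large T antigen under the CD11c promoter, so all groups share this immortalising transgene. It resembles the conventional dendritic cell called cDC1, which takes up dead cells and presents their antigens on MHC class I to cytotoxic T cells. A dendritic cell at rest becomes a stimulating one when pattern receptors or cytokines switch on NF-kB, interferon and immediate early genes. Growth factors such as GM-CSF, CSF1 and the FLT3 ligand, and SMAD signalling with its ID target genes, shape the identity and number of these cells. The labels do not say whether replicates were separate cultures, and p-values here reflect only how these libraries vary, which may in part be technical.

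The 5 libraries held 15938185 to 19673562 counts. The first principal component of the 5 took 66.4% of their variance and set EV (-38.8 and -40.6) apart from Vkine (23.2, 24.5 and 31.8). Vkine replicate 3 lay apart on the second component (12.7% of the variance), at -24.2 against 17.8 and 9.40 in the other Vkine libraries. The share of mitochondrial counts moved with the group, from 1.36% and 1.41% in EV to 1.75%, 1.72% and 1.86% in Vkine. Markers of cDC1 were present in all 5 libraries (Irf8 at 4833 and 4748 CPM in EV and 3512, 3475 and 3378 CPM in Vkine, Xcr1 at 278 and 294 CPM in EV and 339.5, 345 and 375 CPM in Vkine). Vcan, the versican gene, was near the limit of detection (0.518 and 0.5895 CPM in EV and 1.31, 0.832 and 0.837 CPM in Vkine) and did not pass the test (0.85 ± 0.50 SE on the log2 scale, adjusted p = 0.2). A count per gene does not tell fragment from full-length versican, so Vcan does not check the Vkine label.

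At rest, Vkine cells had higher levels of interferon, immediate early and sterol synthesis genes and of C1q, and lower levels of Id1, Id2, Id3, Csf1r and Csf2rb, of ribosome biogenesis and many glycolysis genes, and of many cDC1 markers. Of the lists described below, type I interferon genes rose in 23 of 30 and cholesterol genes in 22 of 25, while ribosome biogenesis genes fell in 30 of 30. All lists and members were chosen with earlier results of these data known, so their counts may be partly set by that choice. Values are CPM, counts scaled to the library total with TMM factors, given for EV replicates 1 and 2 and then for Vkine replicates 1, 2 and 3. Differences are log2 fold changes of Vkine minus EV ± SE. A gene was called at a Benjamini-Hochberg adjusted p under 0.05 in edgeR's quasi-likelihood test over all 13357 genes. Of these, 2261 rose in Vkine (16.9%) and 2446 fell (18.3%), so 35.2% were called and the median of all genes was 0.01. In 64.5% of genes the libraries of EV and Vkine did not overlap (32.1% with Vkine higher and 32.3% with Vkine lower). These shares and that median are the background for every gene group below. Of the 4707 genes called, 5 had libraries that overlapped, so a lack of overlap in a called gene adds little to its call. The median size of a called one was 0.50, and 562 genes rose and 217 fell by more than 2-fold. Leaving out EV replicate 1 gave 1316 higher and 1432 lower, EV replicate 2 gave 1388 and 1518, and Vkine replicate 3 gave 1846 and 1947. On FPKM (limma, log2 of FPKM plus 1) the split was 2929 higher and 1786 lower. In bulk RNA, fewer cells of a type and less RNA per cell cannot be told apart.

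**Figure D1:**
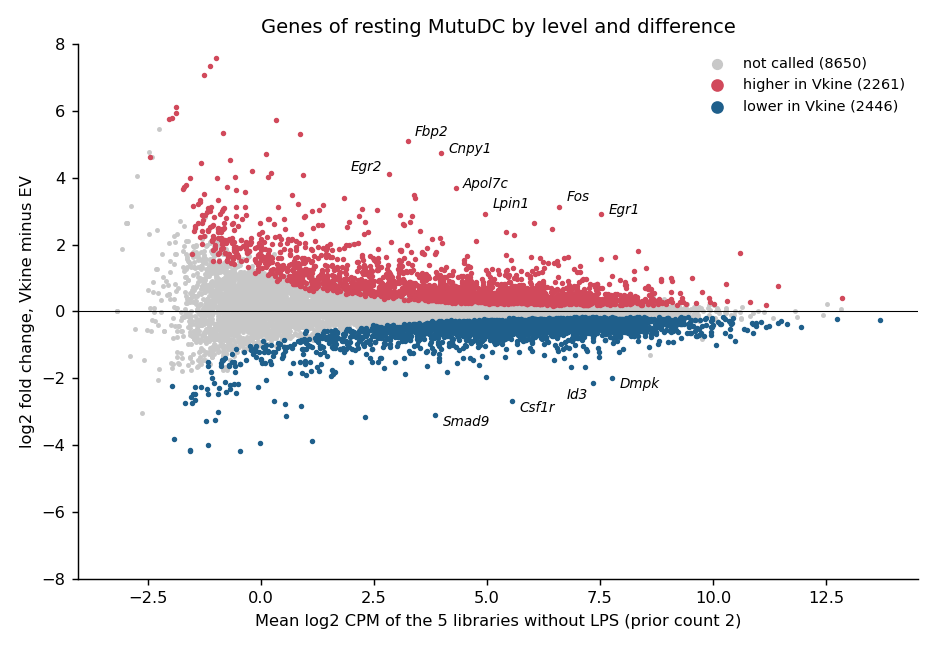
Mean log2 CPM of the 5 resting libraries (x axis, prior count 2) against the log2 fold change of Vkine minus EV (y axis), 1 point per gene tested. Red and blue points are the 2261 genes called higher and the 2446 called lower, and names mark some of the largest differences. The called genes fill both sides, and the highest fold changes lie above zero.

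The largest rises were in genes of metabolism, early transcription and inflammation. Coordinates are those of the deposited table, on GRCm38. Fbp2, which encodes the muscle form of fructose bisphosphatase (ENSMUSG00000021456, chromosome 13, 62836877 to 62858422), was at 1.503 and 0.707 CPM in EV and 39.4, 36.1 and 40.99 CPM in Vkine. All Vkine libraries were above EV, with a difference of 5.10 ± 0.24 (adjusted p = 2.05e-10). Cnpy1, of the canopy family of endoplasmic reticulum proteins (ENSMUSG00000044681, chromosome 5, 28200819 to 28245806), was at 2.12 and 2.18 CPM in EV and 59.4, 55.8 and 59.2 CPM in Vkine. It was low in EV and steady among the Vkine replicates (4.75 ± 0.13, adjusted p = 5.18e-13). Its expressed neighbours on chromosome 5 also rose, En2 by 2.05 at a distance of 28653 bases and Insig1 by 1.57 at 122157 bases. Apol7c, an apolipoprotein L gene of mouse dendritic cells (ENSMUSG00000044309, chromosome 15, 77524852 to 77533316), was at 3.94 and 4.48 CPM in EV and 53.8, 53.4 and 57.1 CPM in Vkine and rose by 3.70 ± 0.12, and Apol10b nearby rose by 1.31. Lpin1, a phosphatidate phosphatase of lipid synthesis (ENSMUSG00000020593, chromosome 12, 16535669 to 16610966), was at 9.12 and 9.14 CPM in EV and 67.7, 71.6 and 69.3 CPM in Vkine, a rise of 2.93 ± 0.10 with no overlap. The other genes with the largest rises were the early transcription factors Egr2 (4.10), Nr4a1 (3.49), Fosb (3.39), Fos (3.13) and Egr1 (2.91), the chemokine gene Cxcl10 (3.06), the cytokine gene Tnf (3.02) and the interferon-induced GTPase Gbp2b (2.88). These 12 genes were chosen among those with every Vkine library above both EV libraries, so that separation is a condition of the choice. Gbp2b lies in a cluster of near-identical genes whose reads may be shared.

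Receptors and signalling genes stood among the largest falls. Smad9, a SMAD that BMP receptors activate (ENSMUSG00000027796, chromosome 3, 54755582 to 54801257), was at 50.6 and 53.8 CPM in EV and 6.5003, 6.08 and 5.56 CPM in Vkine (-3.10 ± 0.10, adjusted p = 4.56e-12). Csf1r, the receptor of CSF1 and interleukin 34 (ENSMUSG00000024621, chromosome 18, 61105572 to 61132149), was at 148 and 139 CPM in EV and 21.9, 22.3 and 22.4 CPM in Vkine. The 3 Vkine values were nearly equal and far below both EV values (-2.69 ± 0.07, adjusted p = 5.18e-13). Dmpk, the kinase of the myotonic dystrophy locus (ENSMUSG00000030409, chromosome 7, 19083849 to 19093821), was at 498 and 496 CPM in EV and 132, 132 and 114 CPM in Vkine (-1.98 ± 0.08). Fzd1, a Wnt receptor (ENSMUSG00000044674, chromosome 5, 4753839 to 4758035), was at 228 and 233 CPM in EV and 77.6, 71.8 and 68.8 CPM in Vkine (-1.66 ± 0.07). Both fell. The 12 genes with the largest falls, Id1, Id3 and Csf2rb among them, were chosen among those with every Vkine library below both EV libraries. Kif7, a kinesin of the hedgehog pathway (-1.87), Gadd45g, a stress-induced activator of MAP kinases (-1.97), the membrane-bound chemokine Cx3cl1 (-1.70), the endosomal protein gene Pheta1 (-1.63) and the fatty acid carrier Fabp5 (-1.61) also fell. Fabp5 has many processed copies in the mouse genome, so its counts are uncertain. Beside Cx3cl1 on chromosome 8, the chemokine gene Ccl17 was at 0.311 and 0.413 CPM in EV and 0, 0.156 and 0.0598 CPM in Vkine (-2.22 ± 0.74, adjusted p = 0.0285), a low level whose call ended without EV replicate 1, EV replicate 2, Vkine replicate 1 or Vkine replicate 3.

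**Figure D2:**
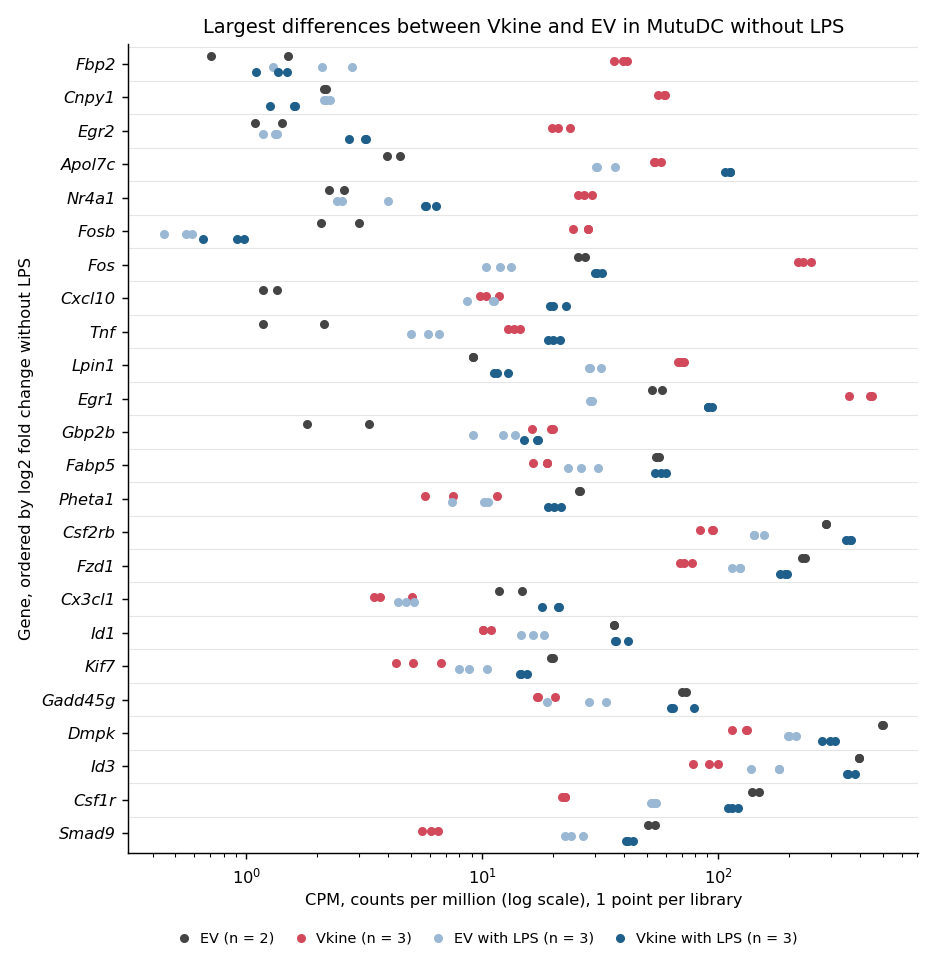
CPM on a log axis for the 12 genes with the largest rise and the 12 with the largest fall, 1 point per library, coloured by group (EV, n = 2, the other 3 groups, n = 3 each). Genes were chosen so that the red Vkine points lie apart from the dark EV points. The libraries with LPS lie between them or beyond.

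Genes of BMP and TGF-beta signalling moved in both directions. BMP receptors activate SMAD1, SMAD5 and SMAD9, which induce the ID genes, inhibitors of helix-loop-helix transcription factors, and the inhibitory genes Smad6 and Smad7. Of 19 genes tested, 9 fell and 5 rose, with a median of -0.25. Id3 was at 395 and 397 CPM in EV and 100.3, 91.6 and 78.2 CPM in Vkine (-2.14 ± 0.11, adjusted p = 7.99e-10) and Id1 at 36.3 and 36.3 CPM in EV and 10.1, 10.03 and 10.9 CPM in Vkine (-1.81 ± 0.11, adjusted p = 3.07e-09). Id2, which cDC1 need for their development, was at 1087 and 1082 CPM in EV and 635, 635 and 675 CPM in Vkine (-0.74 ± 0.09). For all of them the Vkine libraries lay below both EV libraries. The inhibitory Smad6 was low at 4.72 and 3.65 CPM in EV and 0.504, 0.468 and 0.896 CPM in Vkine (-2.77 ± 0.28), and Smad7 differed by -1.76 ± 0.22. Smad1 fell by less (-0.43 ± 0.07), and Smad5 (-0.07 ± 0.09, adjusted p = 0.598) and the BMP receptor Bmpr1a (0.12 ± 0.10, adjusted p = 0.394) were not called. Among genes of TGF-beta signalling, the co-repressors Skil and Ski fell (-0.82 and -0.46), whereas the receptor Tgfbr2 (1.27 ± 0.30), its SMAD gene Smad3 (0.59 ± 0.09) and the co-repressor Tgif1 (0.42) rose. Tgfbr1 (0.42) and Smad2 (0.26) were called higher too, but both lost the call without EV replicate 1, which left 3 genes called higher, Tgfbr1 also without Vkine replicate 2 or 3, and Smad2 without EV replicate 2 or Vkine replicate 1.

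Receptors for growth factors of myeloid cells moved apart from one another. Csf2rb, the signalling chain of the GM-CSF receptor (ENSMUSG00000071713, chromosome 15, 78325752 to 78353847), was at 287 and 287 CPM in EV and 95.4, 94.1 and 83.5 CPM in Vkine. It fell by 1.66 ± 0.07 on the log2 scale (adjusted p = 1.01e-10) with no overlap, although its close paralog Csf2rb2 can share reads. The binding chain Csf2ra was not called, with 91.1 and 87.5 CPM in EV and 90.3, 87.9 and 73.2 CPM in Vkine (-0.09 ± 0.11, adjusted p = 0.54), and neither was Flt3, the receptor that drives dendritic cell development, with 49.96 and 48.5 CPM in EV and 52.7, 48.5 and 49.4 CPM in Vkine (0.03 ± 0.08, adjusted p = 0.819). Il3ra, a binding chain that also pairs with Csf2rb, rose from 6.74 and 5.78 CPM to 12.5, 12.2 and 8.96 CPM (0.85 ± 0.18). Of the 7 receptor genes tested, 2 were called higher and 3 lower, and Csf3r, Kit and Il7r were near or at 0. Il4ra (0.24) lost its call when either EV library, Vkine replicate 1 or 2, EV with LPS replicate 1 or any Vkine library with LPS was left out, and Csf2rb2 (-1.04) without EV replicate 1 or any 1 of the Vkine libraries.

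Adhesion molecules moved in both directions. Itgal, the alpha chain of the leukocyte integrin LFA-1, was at 313 and 313 CPM in EV and 123, 122 and 118 CPM in Vkine (-1.37 ± 0.07, adjusted p = 7.99e-10). Itgax, which encodes CD11c and whose promoter drives the transgene of this line, was at 904 and 900.2 CPM in EV and 561, 580.5 and 583 CPM in Vkine (-0.65 ± 0.07). In both the Vkine libraries lay below EV. Itgb7, a beta chain of gut-homing integrins, was at 185 and 180.1 CPM in EV and 435, 432 and 406 CPM in Vkine and rose by 1.22 ± 0.08. Itgam, the CD11b gene, was at 7.77 and 8.43 CPM in EV and 13.7, 16.1 and 17.7 CPM in Vkine (0.96 ± 0.14), and the tetraspanin gene Cd81 rose by 0.51 ± 0.07. Itgb2, the partner chain of Itgal, Itgax and Itgam, was not called (-0.09 ± 0.07, adjusted p = 0.305). Over 19 adhesion genes tested, 5 rose and 5 fell. Without EV replicate 2 the falling count was 2, with Cd44 and Itga5 among those that lost the call. Cd44, a hyaluronan receptor, had 277 and 283 CPM in EV and 218, 220.2 and 234 CPM in Vkine (-0.32 ± 0.07).

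Immediate early genes, which cells switch on within minutes of a stimulus without new protein, were among the strongest rises, but not as a block. Of 27 tested, 17 rose and 5 fell, with a median of 0.89. The 5 that fell were Myc (-0.66), Klf4 (-0.46), Klf10 (-0.56), Srf (-0.83) and Fosl1 (-1.08), and Fosl1 lost its call without EV replicate 1 or Vkine replicate 3. All 4 others had Vkine libraries below both EV libraries. Srf, the serum response factor that binds the promoters of Fos and Egr1, was at 115 and 108 CPM in EV and 70.5, 65.3 and 51.9 CPM in Vkine (-0.83 ± 0.10). Genes that feed back on these signals split evenly, 6 higher and 6 lower of 20. Zfp36, which destroys inflammatory mRNAs, rose by 2.47 ± 0.11, and the phosphatase gene Dusp1 was at 16.8 and 14.1 CPM in EV and 37.6, 34.04 and 31.8 CPM in Vkine (1.15 ± 0.12). In contrast Dusp10 was at 211 and 205 CPM in EV and 147, 147 and 139.9 CPM in Vkine (-0.52 ± 0.07), and Dusp6, a feedback inhibitor of ERK signalling, was at 126 and 125 CPM in EV and 118, 115 and 117 CPM in Vkine and was not called (-0.11 ± 0.07, adjusted p = 0.242). Without EV replicate 1, 3 of these feedback genes were called lower.

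Interferon response genes rose, while the IRF family, transcription factors of that response, split. Of 30 type I interferon response genes tested, 23 rose and 2 fell (median 1.28). Isg15, a ubiquitin-like protein, was at 1.61 and 2.004 CPM in EV and 9.42, 8.004 and 9.32 CPM in Vkine, and Usp18, which removes it from proteins, rose by 1.65 ± 0.10. The interferon-inducible GTPases rose in 10 of 14 and fell in 0. Gbp3 was at 1.35 and 1.83 CPM in EV and 5.39, 5.51 and 6.69 CPM in Vkine (1.89 ± 0.21), and Irgm1, which acts on membranes around pathogens, rose by 1.08 ± 0.10. Gbp5 was at 0 in both EV libraries and at least 4.53-fold higher in Vkine, against a floor of 3 counts over the EV libraries, and its call ended without EV replicate 1 or 2. Of 15 IRF and STAT genes 6 rose and 4 fell. Irf7 was at 0.155 and 0.531 CPM in EV and 1.31, 1.98 and 1.97 CPM in Vkine (2.37 ± 0.41). Irf1 was at 104.8 and 102 CPM in EV and 49.8, 45.7 and 41.7 CPM in Vkine (-1.17 ± 0.08, adjusted p = 3.31e-08) and Irf5 at 657 and 634 CPM in EV and 354, 345 and 343 CPM in Vkine (-0.89 ± 0.07). Both lay lower in every Vkine library. Sensors of nucleic acids rose in 5 of 15 and fell in 2, with Ifi204 at 3.21 and 2.89 CPM in EV and 22.5, 22.3 and 21.5 CPM in Vkine (2.85 ± 0.11) and Dhx58 at 6.01 and 5.25 CPM in EV and 19.4, 18.7 and 19.1 CPM in Vkine (1.76 ± 0.13). Reads of the Gbp, Oas and Ifit families and of Ifi204 may be split between near-identical copies.

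Promoters of these genes are shown because their members moved together and because a short motif recurs in them. They span 250 bases before to 50 bases after the start of the gene, read 5′ to 3′ on its strand, from RefSeq on GRCm38.p6. Capitals mark the interferon-stimulated motif, a pair of GAAA separated by any 2 bases, on either strand, with overlapping matches counted. It was present in the promoters of 10 of the 17 higher type I interferon genes and 6 of the 7 higher GTPases that have an entry, and of 3.99% of all 27025 genes in that table. Among members that were not called it was present in 2 of 4 and in 3 of 3. A match is a description of letters and not a site in use. Isg15 is at chr4:156200769-156201068 on the minus strand and Gbp3 at chr3:142559794-142560093 on the plus strand.
Isg15: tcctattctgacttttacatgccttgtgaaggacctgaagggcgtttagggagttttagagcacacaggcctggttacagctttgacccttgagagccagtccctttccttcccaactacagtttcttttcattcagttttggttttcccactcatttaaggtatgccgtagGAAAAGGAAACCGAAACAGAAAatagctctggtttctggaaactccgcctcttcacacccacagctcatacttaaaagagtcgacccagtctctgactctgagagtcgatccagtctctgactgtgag
Gbp3: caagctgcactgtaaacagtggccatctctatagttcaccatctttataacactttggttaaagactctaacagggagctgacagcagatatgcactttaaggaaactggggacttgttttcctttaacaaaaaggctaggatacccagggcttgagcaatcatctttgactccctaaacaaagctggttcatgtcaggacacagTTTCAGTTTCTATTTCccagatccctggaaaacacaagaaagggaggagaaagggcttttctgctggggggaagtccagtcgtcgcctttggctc

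NF-kB is held back by inhibitors that it induces itself. Of 20 NF-kB subunits and inhibitors, 14 rose and 1 fell (median 0.39). The inhibitor Tnfaip3 was at 5.65 and 6.31 CPM in EV and 19.6, 20.3 and 18.4 CPM in Vkine (1.70 ± 0.14), Traf1 at 0.829 and 1.002 CPM in EV and 4.38, 4.42 and 2.93 CPM in Vkine (2.11 ± 0.24) and the atypical inhibitor Nfkbiz at 2.85 and 3.12 CPM in EV and 19.2, 16.4 and 18.3 CPM in Vkine (2.59 ± 0.13). Vkine and EV libraries did not overlap in any of the 3. Traf2, the gene that fell (-0.37 ± 0.08), lost its call without EV replicate 1. Birc3, a ubiquitin ligase of the same pathway, was at 52.3 and 57.1 CPM in EV and 95.9, 89.5 and 96.3 CPM in Vkine (0.78 ± 0.07). The NF-kB site, counted on either strand, was present in the promoters of 9 of the 12 rising members that have an entry, of 1 of the 4 not called and of 5.14% of all genes. The promoter of Nfkbia, which encodes the inhibitor that holds NF-kB in the cytosol (0.42 ± 0.09), is shown as an example with its NF-kB site in capitals (chr12:55492598-55492897, minus strand).
Nfkbia: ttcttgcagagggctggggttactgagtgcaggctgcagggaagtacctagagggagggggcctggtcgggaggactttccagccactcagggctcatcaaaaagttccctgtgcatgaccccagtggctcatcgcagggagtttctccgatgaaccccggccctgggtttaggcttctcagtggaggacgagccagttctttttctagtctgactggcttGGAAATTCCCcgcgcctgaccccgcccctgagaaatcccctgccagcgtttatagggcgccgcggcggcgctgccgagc

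Messengers of inflammation and receptors for them rose more often than they fell. Of 14 cytokine genes tested 9 rose and 0 fell. Lif, of the interleukin 6 family, was at 7.204 and 6.897 CPM in EV and 22.6, 24.8 and 21.9 CPM in Vkine (1.71 ± 0.14), and Il6, whose call ended without EV replicate 1, at 0.259 and 0.413 CPM in EV and 1.11, 1.09 and 1.31 CPM in Vkine. Chemokine genes rose in 7 and fell in 2 of 14. Ccl7 was at 0 in both EV libraries and at 1.66, 1.04 and 1.195 CPM in Vkine, at least 15.7-fold higher against the same floor. Chemokine receptors rose in 4 of 7. Cxcr4, the receptor for the stromal chemokine CXCL12, was at 2.902 and 2.71 CPM in EV and 9.47, 7.95 and 7.89 CPM in Vkine (1.59 ± 0.17) and Ccr2, the receptor of monocytes, at 23.01 and 23.5 CPM in EV and 39.6, 41.3 and 48.3 CPM in Vkine (0.89 ± 0.10). Among pattern receptors 7 of 14 rose and 3 fell (4 rose without EV replicate 1). Tlr13, a sensor of bacterial ribosomal RNA, was at 1.503 and 1.77 CPM in EV and 6.601, 6.03 and 6.63 CPM in Vkine (1.97 ± 0.23). The LPS receptor gene Tlr4 was at 6.53 and 4.66 CPM in EV and 5.04, 4.05 and 4.302 CPM in Vkine and was not called (-0.33 ± 0.19, adjusted p = 0.186), and its co-receptor Cd14 had 5.804 and 5.48 CPM in EV and 7.61, 7.796 and 6.57 CPM in Vkine (0.38 ± 0.21, adjusted p = 0.17). Genes of interferon receptors, JAK kinases and their inhibitors rose in 6 and fell in 2 of 9, but 1 was called higher without EV replicate 1 and 2 without EV replicate 2. Socs3, one of these inhibitors, was at 1.04 and 1.36 CPM in EV and 4.13, 4.31 and 2.99 CPM in Vkine (1.68 ± 0.32).

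Ligands that dendritic cells show to T cells rose in 9 of 14 and fell in 0. Cd83 was at 40.7 and 40.6 CPM in EV and 83.04, 79.7 and 80.5 CPM in Vkine (0.99 ± 0.08). Inhibitory molecules rose beside costimulatory ones: Cd274, the PD-L1 gene, was at 0.311 and 0.472 CPM in EV and 1.36, 1.98 and 1.25 CPM in Vkine (1.97 ± 0.38) and Havcr2, the TIM-3 gene, at 2.69 and 2.53 CPM in EV and 8.11, 7.85 and 8.84 CPM in Vkine (1.65 ± 0.19). Genes of mature migratory dendritic cells, which leave tissue for the lymph node, rose in 6 of 14 and fell in 1. Samsn1, an adaptor of signalling, was at 2.95 and 3.18 CPM in EV and 8.87, 7.9004 and 8.96 CPM in Vkine (1.48 ± 0.16) and Socs2 at 0.415 and 0.766 CPM in EV and 2.47, 2.55 and 2.21 CPM in Vkine (2.04 ± 0.37). Ccr7, the receptor that guides migration, had 0.0518 and 0 CPM in EV and 0, 0.104 and 0.0598 CPM in Vkine, and Fscn1, an actin-bundling gene of mature cells, had 4.198 and 4.01 CPM in EV and 3.58, 3.64 and 3.705 CPM in Vkine (-0.17 ± 0.15, adjusted p = 0.388).

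Genes of sterol and fatty acid synthesis rose together, with exceptions on either side. SREBP2 and SREBP1 are membrane-bound factors that switch on cholesterol and fatty acid genes when sterols are low, whereas LXR receptors induce efflux and desaturase genes when sterols are high. Of 25 cholesterol genes, 22 rose and 1 fell (median 0.997). The one that fell was Scap, which escorts SREBP to the Golgi (-0.27 ± 0.08), and its call ended without EV replicate 1 or 2 or Vkine replicate 2 or 3. Of 15 genes of fatty acid synthesis 11 rose (median 0.58). The desaturase genes Scd1 and Scd2 were at 21.5 and 22.2 CPM in EV and 129, 134 and 147 CPM in Vkine (2.64 ± 0.10) and at 747 and 756 CPM in EV and 2588, 2580.2 and 2400.3 CPM in Vkine (1.75 ± 0.08). Acss2, which makes acetyl-CoA from acetate, was at 5.39 and 5.84 CPM in EV and 18.9, 19.4 and 18.8 CPM in Vkine (1.76 ± 0.12). Fasn, the fatty acid synthase itself, was at 556 and 553 CPM in EV and 588, 605 and 564 CPM in Vkine and was not called (0.08 ± 0.08, adjusted p = 0.502), and Elovl1, an elongase of very long chains, fell (170.5 and 165 CPM in EV and 84.9, 84.98 and 72.5 CPM in Vkine, -1.05 ± 0.09). LXR targets rose in 4 of 9 and fell in 1. The efflux genes Abcg1 and Abca1 rose, Abcg1 at 24.8 and 23.5 CPM in EV and 75.4, 67.5 and 68.5 CPM in Vkine (1.55 ± 0.09) and Abca1 by 0.89 ± 0.22, while Apoe was at 9.85 and 10.1 CPM in EV and 4.74, 5.56 and 4.003 CPM in Vkine (-1.06 ± 0.16).

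Promoters of sterol genes are shown with the motif CCAAT in capitals on either strand and, in Hmgcs1, one TCACNCCAC match, a sterol regulatory motif. CCAAT was present in 14 of the 15 rising cholesterol genes with an entry, against 41.1% of all 27025 genes, and in both members that were not called. TCACNCCAC was present in 1 of the 15 and in 1.44% of all genes. Hmgcs1 (chr13:119690101-119690400, plus strand) encodes the HMG-CoA synthase and holds 4 CCAAT matches, and Cyp51 (chr5:4104648-4104947, minus strand), the lanosterol demethylase, holds 1. Cyp51 was at 211 and 218 CPM in EV and 512, 522 and 552 CPM in Vkine (1.30 ± 0.07).
Hmgcs1: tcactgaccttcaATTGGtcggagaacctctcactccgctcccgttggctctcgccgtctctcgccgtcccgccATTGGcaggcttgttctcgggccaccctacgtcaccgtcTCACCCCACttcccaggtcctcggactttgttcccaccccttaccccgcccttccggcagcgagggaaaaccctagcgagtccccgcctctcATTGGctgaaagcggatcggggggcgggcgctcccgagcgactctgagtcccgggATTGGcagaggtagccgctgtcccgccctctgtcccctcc
Cyp51: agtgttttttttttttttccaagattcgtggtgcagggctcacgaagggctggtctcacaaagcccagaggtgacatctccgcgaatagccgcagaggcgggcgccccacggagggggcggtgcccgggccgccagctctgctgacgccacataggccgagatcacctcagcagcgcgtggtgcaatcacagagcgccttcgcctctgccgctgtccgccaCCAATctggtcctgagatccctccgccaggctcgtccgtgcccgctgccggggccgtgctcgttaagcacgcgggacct

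Eicosanoid genes rose in 5 and fell in 1 of 11. Hpgds, a synthase of prostaglandin D, was at 6.48 and 7.25 CPM in EV and 28.4, 26.6 and 29.8 CPM in Vkine (2.04 ± 0.14). Alox5ap, which presents arachidonic acid to lipoxygenase, was at 139.7 and 134 CPM in EV and 88.3, 80.1 and 82.2 CPM in Vkine (-0.71 ± 0.08). The groups did not overlap in either gene. Genes of immune amino acid metabolism rose in 4 and fell in 2 of 8, with Acod1, which makes itaconate, at 0.104 and 0.236 CPM in EV and 1.51, 1.403 and 0.717 CPM in Vkine (2.84 ± 0.47) and Kynu of the tryptophan pathway at 14.5 and 13.97 CPM in EV and 27.8, 30.4 and 31.3 CPM in Vkine (1.06 ± 0.10). Srm and Odc1, which make polyamines, fell (Srm -0.84 ± 0.11, Odc1 -0.39 ± 0.07).

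Markers of cDC1 fell in 12 and rose in 3 of 20 (median -0.32). Batf3, a transcription factor that cDC1 require, was at 92.4 and 91.6 CPM in EV and 56.7, 55.5 and 49.5 CPM in Vkine (-0.77 ± 0.11, adjusted p = 4.76e-05). Irf8, listed above, differed by -0.47 ± 0.06, Naaa by -0.61 ± 0.06 and Clec9a, the receptor for dead cells, by -0.34 ± 0.07. All 4 fell. The 3 that rose were Ly75 (0.43), the chemokine receptor Xcr1 (0.30) and Btla (0.19), and all 3 calls ended without EV replicate 1. Against a fold of 1.5 in edgeR's test, 0 of the 12 falls passed. Transcription factors of dendritic cell lineages rose in 4 and fell in 3 of 19, with a median of -0.06. These shares, 21.1% and 15.8%, were near the 16.9% and 18.3% of all genes, so the list did not stand out. Tcf4, the factor of plasmacytoid dendritic cells, was at 14.4 and 15.5 CPM in EV and 30.5, 30.7 and 32.7 CPM in Vkine (1.07 ± 0.10). Relb rose by 0.75 ± 0.10, while Spi1 (-0.48) and Zbtb46 (-0.38) fell. Without replicate 2 or 3 of EV with LPS, 5 of these factors were called lower. The defining plasmacytoid genes Siglech and Ly6d were at or near 0 in all 5 libraries. The summed level of the 10 plasmacytoid markers was 44.4 to 45.1 CPM in EV and 73.7 to 75.7 CPM in Vkine, and 2 of 4 tested rose (Tcf4 and Bst2). Of 6 cDC2 markers tested, Itgam rose and Klf4 fell, 16.7% in each direction and so near the shares of all genes.

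Genes of antigen presentation on MHC class I moved in both directions. The class I chain H2-K1 was at 426 and 417 CPM in EV and 660.5, 641 and 581 CPM in Vkine (0.57 ± 0.09), its light chain B2m at 263 and 275 CPM in EV and 429, 441 and 449.7 CPM in Vkine (0.71 ± 0.08), and the regulator of these genes Nlrc5 at 29.7 and 27.5 CPM in EV and 55.3, 57.2 and 63.7 CPM in Vkine (1.03 ± 0.10). All 3 rose, and H2-K1 has close relatives that can share reads. In contrast the peptide transporter Tap1 was at 399.6 and 403 CPM in EV and 273, 276 and 256 CPM in Vkine (-0.58 ± 0.07, adjusted p = 6.98e-06) and the immunoproteasome subunit Psmb8 at 412 and 411 CPM in EV and 253, 250.01 and 238 CPM in Vkine (-0.74 ± 0.11, adjusted p = 6.52e-05). Tapbp, Tap2, Tapbpl, Calr and Sec61a1 fell as well (-0.54 to -0.30 on the log2 scale), which made 3 higher and 7 lower of 18. With the GC and length trends removed 6 were higher and 9 lower, and 5 were higher in a fit of the resting libraries without Vkine replicate 3. For MHC class II, the peptide exchange chains H2-DMb1 (467 and 452 CPM in EV and 316, 305 and 284 CPM in Vkine, -0.61 ± 0.09) and H2-DMa (-0.55 ± 0.10) fell, and H2-Ob, which restrains that exchange, rose by 0.38 ± 0.08. The class II list held 3 higher and 4 lower of 13, and its median of -0.07 turned positive with FPKM and after a correction for GC content. Ctss and March1 are among its 3 higher calls, and both ended without EV replicate 1 or EV replicate 2. Genes of chromosome 17 were called lower more often than all genes (36.4%, given at the end). The part of that shift in both MHC lists was not tested.

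Complement genes rose in 5 and fell in 2 of 10. C1qa, C1qb and C1qc encode the chains of C1q, the recognition molecule of the classical pathway. C1qa was at 5.96 and 6.48 CPM in EV and 27.3, 29.3 and 27.96 CPM in Vkine (2.18 ± 0.14, adjusted p = 6.66e-09), C1qc at 4.35 and 3.83 CPM in EV and 17.8, 16.9 and 13.6 CPM in Vkine (1.97 ± 0.18) and C1qb at 3.68 and 3.12 CPM in EV and 10.5, 12.3 and 8.605 CPM in Vkine (1.62 ± 0.20). Each Vkine value exceeded both EV values. The anaphylatoxin receptor gene C3ar1 was at 4.301 and 3.54 CPM in EV and 12.04, 16.1 and 14.5 CPM in Vkine (1.85 ± 0.17). Cfp, which encodes properdin of the alternative pathway, was at 367 and 366 CPM in EV and 255, 236 and 213 CPM in Vkine and fell by 0.64 ± 0.09 on the log2 scale. C3 itself was low, at 0 and 0.354 CPM in EV and 1.31, 0.7796 and 0.717 CPM in Vkine, and its call ended without EV replicate 1.

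C1q genes also mark macrophages, so whole lists of markers of other cells are given. Of 12 macrophage markers 7 were tested, 5 rose and 1 fell, and the summed level of the 12 was 405 to 433 CPM in EV and 348 to 388 CPM in Vkine. Adgre1, the F4/80 gene, was at 0.933 and 1.12 CPM in EV and 3.48, 2.91 and 2.03 CPM in Vkine (1.47 ± 0.24), and Fcgr1 was at 0 in EV and 0.857, 1.04 and 0.837 CPM in Vkine, at least 11.02-fold higher against the floor. Timd4, a receptor for dead cells, was at 163 and 164 CPM in EV and 95.1, 94.96 and 95.2 CPM in Vkine (-0.78 ± 0.06), and Mertk, Cd163, Vsig4, Marco and Trem2 were at or near 0 in all 5 libraries. Among B cell genes Ighm was at 75.7 and 76.6 CPM in EV and 201, 192 and 192 CPM in Vkine (1.36 ± 0.08), Ms4a1 at 0.155 and 0.05895 CPM in EV and 1.11, 0.832 and 1.02 CPM in Vkine and Cr2 at 0 in EV and 1.36, 0.884 and 1.02 CPM in Vkine, at least 13.1-fold higher. The summed level of the 8 B cell markers was 75.9 to 76.6 CPM in EV and 194 to 204 CPM in Vkine, while Blk was at 0 in all 5 libraries and Cd79a, Cd79b and Pax5 near it. Of the 10 neutrophil and 12 T cell and NK cell markers 0 passed the filter. The mast cell gene Gata2 (-0.85 ± 0.25), the endothelial Cdh5 (-1.22 ± 0.17), the epithelial Epcam (1.18 ± 0.32) and the platelet gene Pf4 (1.47 ± 0.20) were the called members of their lists, and Gata2 and Epcam lost the call without EV replicate 1, Gata2 also without EV replicate 2. The part of any other cell type in these results was not tested.

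Genes that build and make up the ribosome fell. Of 30 tested genes of ribosome biogenesis and Myc targets, 30 fell (median -0.64), from -0.90 for Bysl to -0.23 for Nop58, and Nop58, Gnl3 and Utp20 lost their calls when either EV library was left out. Ncl, the nucleolin gene, was at 2168 and 2146 CPM in EV and 1445, 1487 and 1462 CPM in Vkine (-0.56 ± 0.07) and Rrp1b, a factor of ribosomal RNA maturation, at 84.01 and 78.4 CPM in EV and 47.3, 45.1 and 41.6 CPM in Vkine (-0.86 ± 0.08, adjusted p = 4.74e-07). Myc, which induces many of these genes and is counted among the immediate early genes, was at 211 and 214 CPM in EV and 140.3, 138 and 123 CPM in Vkine (-0.66 ± 0.07). None of the 3 overlapped between groups. Of 36 ribosomal protein genes 28 fell and 0 rose (median -0.49), with Rplp0 at 2481 and 2434 CPM in EV and 1701, 1582 and 1471 CPM in Vkine (-0.63 ± 0.10) and Rps2 at 2088 and 2047 CPM in EV and 1179, 1112 and 1056 CPM in Vkine (-0.89 ± 0.11). Without EV replicate 1 the count was 18, and reads of ribosomal protein genes may be shared with their pseudogenes. After each library's trend with GC content and length was removed, the same lists held 30 of 30 and 30 of 36 called lower. Against a fold of 1.5, 3 genes of ribosome biogenesis and 1 ribosomal protein gene passed as lower.

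**Figure D3:**
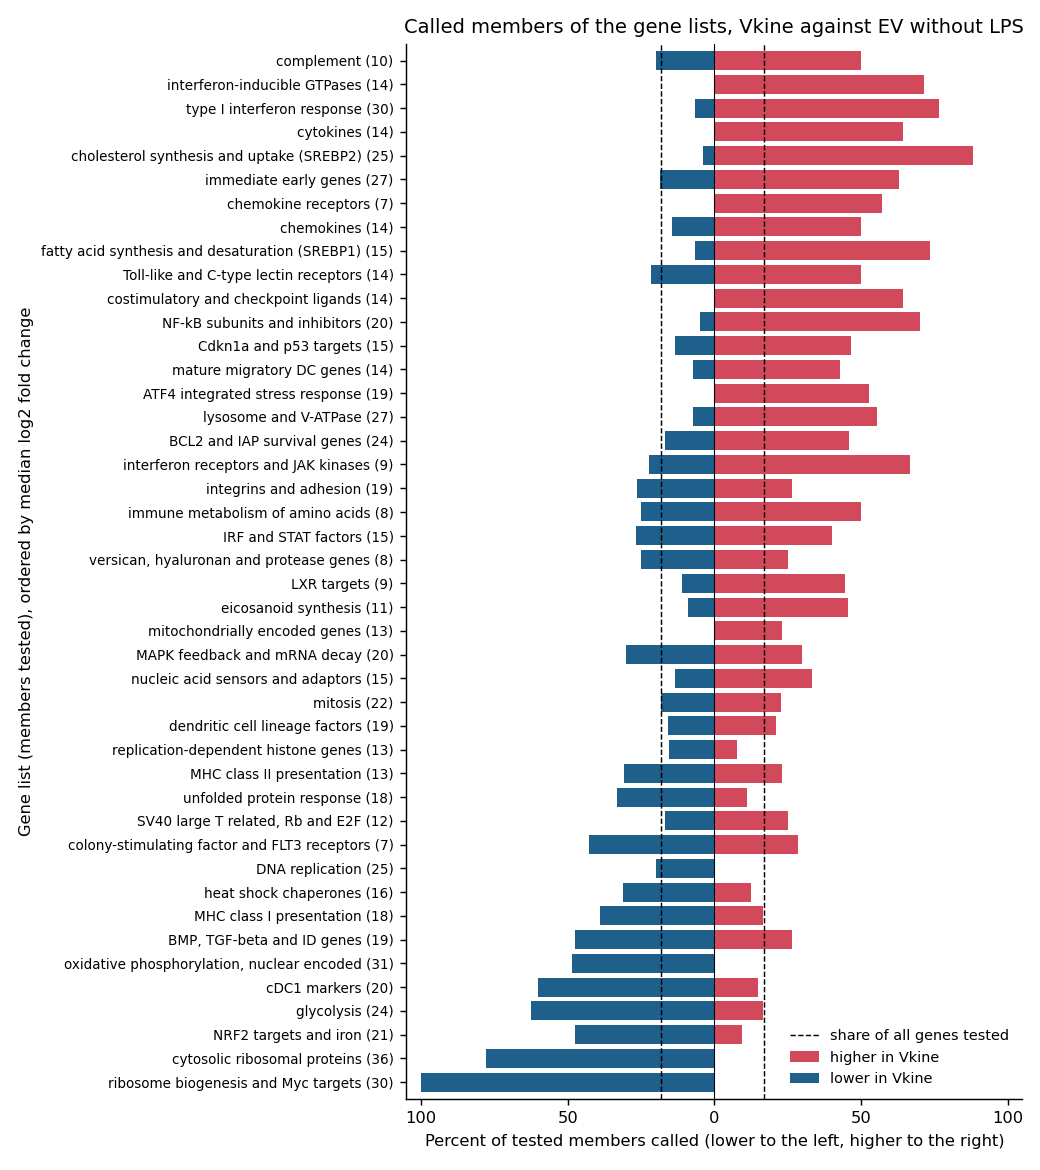
Percent of tested members called lower (blue, left) and higher (red, right) for lists with at least 7 tested members, ordered by median log2 fold change, with the number tested in brackets. Dashed lines mark the shares over all genes, 16.9% higher and 18.3% lower. Ribosome biogenesis lies at 100% lower and cholesterol synthesis at 88.0% higher. The lists were chosen with earlier results of these data known.

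Glycolysis fell in 15 and rose in 4 of 24 (median -0.33). Ldha, which makes lactate, was at 1788 and 1791 CPM in EV and 1099, 1076 and 1057 CPM in Vkine (-0.73 ± 0.08), Pgam1 at 543 and 546 CPM in EV and 342, 325 and 292 CPM in Vkine (-0.77 ± 0.07) and the kinase Hk2 at 128 and 127 CPM in EV and 80.3, 81.03 and 77.7 CPM in Vkine (-0.68 ± 0.07). All Vkine libraries were below EV in these 3. The myeloid hexokinase Hk3 went the other way (30.5 and 28.7 CPM in EV and 52.9, 53.6 and 50.5 CPM in Vkine, 0.82 ± 0.09), as did the aldolase Aldoc (0.71), the phosphofructokinase Pfkm (0.54) and the oxygen-regulated transcription factor Hif1a (0.55). With the GC and length trends removed, glycolysis genes were 12 lower and 5 higher with a median of -0.18, and against a fold of 1.5, 0 were lower. Nuclear genes of oxidative phosphorylation fell in 15 of 31 and rose in 0, with Sdhd at 110.1 and 111 CPM in EV and 80.9, 75.9 and 65.7 CPM in Vkine (-0.58 ± 0.10). With EV replicate 1 or 2 left out that count was 3 or 6, and with Vkine replicate 2 or 3 left out it was 8 or 7, and against a fold of 1.5 it was 0. Of 13 mitochondrially encoded genes 3 were called higher, led by mt-Co1 (0.39 ± 0.08). After the correction for GC content 1 was higher and 5 lower.

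The stress genes did not move as one. Of 19 genes of the ATF4 response, which restores amino acids, 10 rose and 0 fell. Trib3, a pseudokinase, was at 1.61 and 1.53 CPM in EV and 10.7, 9.98 and 9.38 CPM in Vkine (2.67 ± 0.25), Chac1, which degrades glutathione, at 1.14 and 1.24 CPM in EV and 4.38, 4.63 and 4.42 CPM in Vkine (1.91 ± 0.27) and the asparagine synthetase Asns at 27.3 and 29.4 CPM in EV and 62.1, 59.4 and 59.7 CPM in Vkine (1.09 ± 0.10, adjusted p = 4.36e-07). Atf4 itself was at 300.5 and 288 CPM in EV and 347, 338 and 278 CPM in Vkine and was not called (0.12 ± 0.10, adjusted p = 0.363). Genes of the NRF2 response to oxidants and of iron fell in 10 and rose in 2 of 21, with 5 falling without EV replicate 1, 6 without EV replicate 2, and 4 rising without EV with LPS replicate 2. Hmox1, the heme oxygenase, was at 609 and 584 CPM in EV and 301, 287 and 259.5 CPM in Vkine (-1.08 ± 0.08, adjusted p = 2.78e-08), and both subunits of the glutathione-making ligase fell, Gclc at 65.7 and 72.2 CPM in EV and 40.8, 42.3 and 43.5 CPM in Vkine (-0.71 ± 0.08) and Gclm by -0.57 ± 0.06. Nfe2l2, the NRF2 gene, was not called (0.19 ± 0.08, adjusted p = 0.0756). The chaperone Hspd1 of mitochondria fell by 0.46 ± 0.07 among 5 lower and 2 higher heat shock genes of 16. Genes of the unfolded protein response were 6 lower and 2 higher of 18, with Hyou1 at -0.49 ± 0.06, Dnajb9 at 0.66 ± 0.10 and Herpud1 at 0.50 ± 0.06.

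Lysosomal genes rose in 15 and fell in 2 of 27 (median 0.23). In edgeR's test against a fold of 1.5, 1 was called higher. The protease gene Ctsd was at 2.49 and 2.06 CPM in EV and 8.42, 7.17 and 6.63 CPM in Vkine (1.70 ± 0.19), Ctsh rose by 0.75 ± 0.11 and the proton pump subunit Atp6v0d1 was at 129.98 and 132 CPM in EV and 205, 199 and 203 CPM in Vkine (0.63 ± 0.09). Of 25 genes of versican, hyaluronan and matrix proteases 8 passed the filter, 2 rose and 2 fell. Hapln3, which links hyaluronan to versican and its relatives, was at 0.363 and 0.766 CPM in EV and 4.13, 3.79 and 3.94 CPM in Vkine and rose by 2.82 ± 0.32 (adjusted p = 7.01e-06), and the gelatinase Mmp9 was at 2051 and 2009.8 CPM in EV and 3608, 3493 and 3176 CPM in Vkine (0.75 ± 0.07). Neither overlapped between groups. Hyal2, a hyaluronidase gene, had 5.91 and 8.61 CPM in EV and 4.54, 3.07 and 3.94 CPM in Vkine (-0.91 ± 0.20) and lost its call without EV replicate 2.

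Cell cycle genes were called in both directions. Of 25 replication genes 0 rose and 5 fell, with Mcm5 of the helicase at 685 and 673 CPM in EV and 480.4, 469 and 414 CPM in Vkine (-0.58 ± 0.08), and the count was 1 or 2 when EV replicate 1, EV replicate 2, Vkine replicate 2 or Vkine replicate 3 was left out. It was 9 or 8 without replicate 2 or 3 of EV with LPS, 9 in a fit of the resting libraries alone, and 10 in that fit without Vkine replicate 3. Mitosis genes were called 5 higher and 4 lower of 22, the higher count being 3 without EV replicate 1 and the lower 0 without EV replicate 1 and 1 without EV replicate 2 or Vkine replicate 3. Cenpe, a motor of chromosomes, rose by 0.53 ± 0.10. Large T antigen binds the retinoblastoma proteins and p53, and Rb1 rose from 53.1 and 55.9 CPM to 85.2, 94.4 and 104.9 CPM (0.80 ± 0.11), while Trp53 was not called (-0.14 ± 0.07, adjusted p = 0.135). The list of retinoblastoma, E2F and related genes held 3 higher and 2 lower of 12 (5 lower without EV with LPS replicate 2). Histone genes were 1 higher and 2 lower of 13. The shares called lower, 16.7% and 15.4%, did not stand above the 18.3% of all genes. Those of replication (20%) and mitosis genes (18.2%) were near it too. Mitosis genes called higher (22.7%) were near the 16.9% of all genes. Targets of p53 rose in 7 of 15 and fell in 2 (1 without EV with LPS replicate 1 or any Vkine library with LPS), with Pmaip1, which promotes apoptosis, at 61.7 and 60.7 CPM in EV and 126, 120.1 and 131 CPM in Vkine (1.04 ± 0.08) and Trp53inp1 at 5.18 and 5.07 CPM in EV and 14.8, 13.6 and 13.6 CPM in Vkine (1.45 ± 0.16). Survival genes rose in 11 and fell in 4 of 24. Bcl2, which blocks apoptosis, was at 49.9 and 53.4 CPM in EV and 80.9, 84.8 and 86.9 CPM in Vkine (0.71 ± 0.10), and Bak1, which carries it out, at 202 and 208 CPM in EV and 145, 134 and 122 CPM in Vkine (-0.62 ± 0.08). Of those that fell, 2 were called without EV replicate 1 and 1 without EV replicate 2 or Vkine replicate 3.

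Among noncoding RNAs, Malat1, a nuclear RNA, was at 891 and 882 CPM in EV and 1534, 1415 and 1760.4 CPM in Vkine and rose by 0.82 ± 0.18. Snhg14, the transcript that hosts small nucleolar RNAs of the imprinted Prader-Willi region, rose by 1.46 ± 0.42 and Mir22hg by 1.08 ± 0.19. Zfas1, another host of small nucleolar RNAs, was at 23.5 and 23.1 CPM in EV and 11.8, 10.3 and 8.605 CPM in Vkine (-1.18 ± 0.13). Firre, an X-linked RNA of nuclear organisation, was at 8.29 and 8.43 CPM in EV and 3.68, 2.81 and 3.94 CPM in Vkine (-1.27 ± 0.17). The antisense genes Rab26os (-1.20) and N4bp2os (-1.14) fell too, but without a stated strand in the counting their reads cannot be told apart from those of the overlapping genes.

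The difference moved with the GC content of the transcript. From the fifth of genes with the lowest GC content to the fifth with the highest, the median fell from 0.22 through 0.09, -0.01 and -0.11 to -0.21, and the share called lower grew from 4.87% to 33.4%. Spearman's correlation of the fold change with GC content was -0.355 across 13337 genes, which are not independent replicates. With each library's trend with GC content and length removed, 2589 genes were called higher and 2581 lower. The 24 genes with the largest rise or fall kept direction and call there, which their choice for large called differences partly sets.

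With LPS present, the difference between Vkine and EV changed for many genes and often turned its sign. The test of the change of the difference (Vkine minus EV with LPS, less the same at rest) called 6577 genes, 49.2% of those tested, 3409 upward (25.5%) and 3168 downward (23.7%). On FPKM the split was 2576 upward and 4048 downward. Of the 4707 genes called at rest, 4007 were called in that test and 3708 (78.8%) had the opposite sign with LPS. That test contains the difference at rest, so the count of 4007 is partly set by choosing genes called at rest. The share of opposite signs over all genes is not given here. The arms share no library, only the estimate of the spread. Across all genes their fold changes had a Pearson correlation of -0.265 and a Spearman correlation of -0.414, given as a description, since genes are not independent. Of 2818 genes called in both arms, 2437 had opposite signs and 381 the same sign. The trend with GC content also turned: with LPS the median rose from -0.27 in the fifth of genes with the lowest GC content to 0.28 in the fifth with the highest (Spearman's correlation 0.435, against -0.355 at rest), and its part in the change of sign was not tested.

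**Figure D4:**
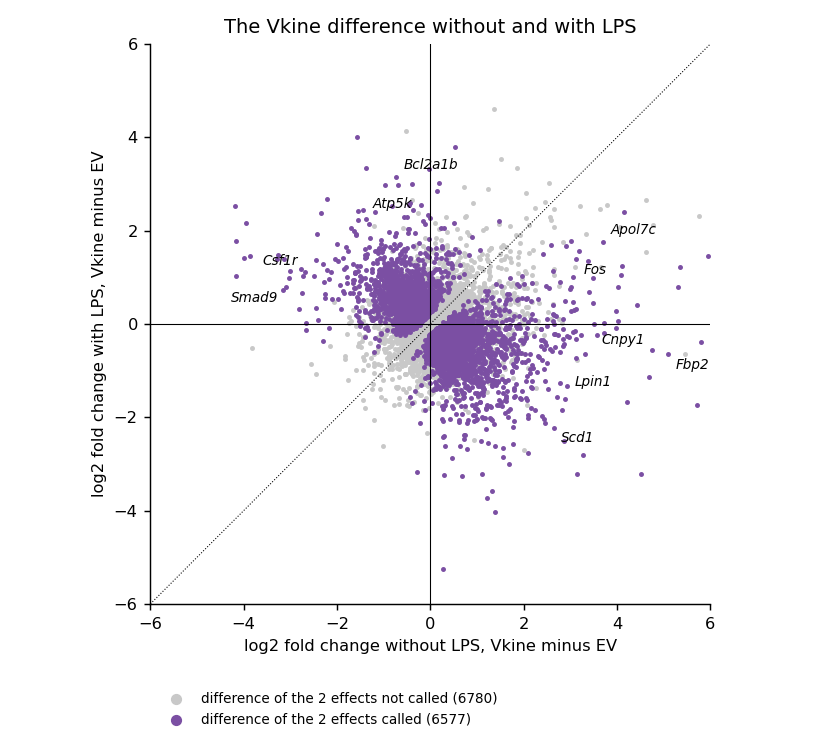
Log2 fold change of Vkine minus EV at rest (x axis) and with LPS (y axis), 1 point per gene. Purple points are the 6577 genes whose difference changed with LPS by the interaction test, and 5 genes beyond 6 on either axis are not drawn. Points concentrate at the upper left and lower right, where the signs are opposite.

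Several receptor and signalling genes that were lower in resting Vkine were higher in Vkine than in EV once LPS was present. Csf1r averaged 53.2 CPM ± 1.35 in EV with LPS and 115 CPM ± 6.04 in Vkine with LPS (SD, n = 3), a change of the difference of 3.81 ± 0.10 (adjusted p = 4.03e-13). Csf2rb averaged 146 CPM ± 8.07 in EV with LPS and 359 CPM ± 8.58 in Vkine with LPS, and Id3 averaged 166 CPM ± 24.6 in EV with LPS and 362 CPM ± 16.97 in Vkine with LPS. Itgal averaged 189 CPM ± 16.1 in EV with LPS and 506 CPM ± 9.96 in Vkine with LPS and Hmox1 178 CPM ± 12.5 in EV with LPS and 477 CPM ± 8.02 in Vkine with LPS. In each of these 5 the EV level with LPS was below that at rest, and the Vkine level with LPS was above that at rest. The fructose bisphosphatase gene Fbp2 averaged 2.06 CPM ± 0.753 in EV with LPS and 1.32 CPM ± 0.201 in Vkine with LPS, and Cnpy1 2.19 CPM ± 0.0681 in EV with LPS and 1.49 CPM ± 0.197 in Vkine with LPS, so the high level at rest was absent with LPS. Scd1, at 129, 134 and 147 CPM in resting Vkine, averaged 92.7 CPM ± 9.203 in EV with LPS and 19.8 CPM ± 1.28 in Vkine with LPS (-4.87 ± 0.13). A minority kept its sign, such as Apol7c with 32.5 CPM ± 3.44 in EV with LPS and 110.5 CPM ± 3.27 in Vkine with LPS and C1qa with 22.95 CPM ± 3.64 in EV with LPS and 42.1 CPM ± 2.21 in Vkine with LPS, both higher in Vkine in both arms.

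**Figure D5:**
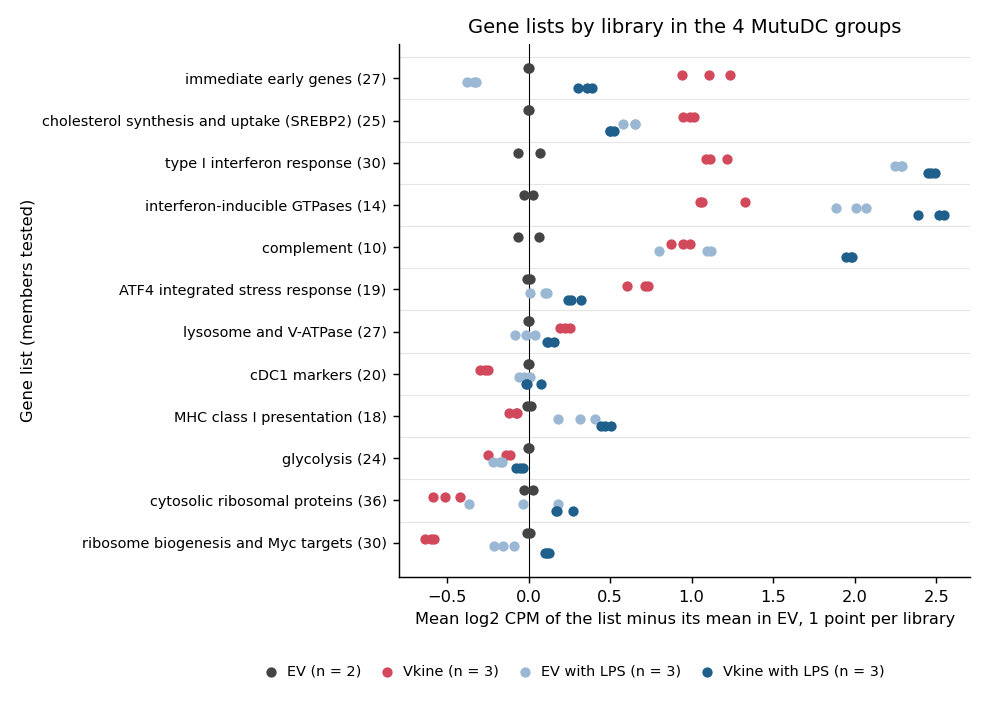
Mean log2 CPM of 12 lists in each of the 11 libraries, less the mean of the EV libraries at rest (x axis), with the number of tested members in brackets. Red Vkine points at rest lie right of the EV points for the upper 7 lists and left for the lower 5, whereas Vkine with LPS lies right of EV at rest for both ribosome lists.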

How the data were processed

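RNA of MutuDC was sequenced from libraries made with NEBNext Ultra kits, per the labels' protocols. Per the submitters' processing notes, GRCm38 was the build, and featureCounts 1.5.0-p3, DESeq2 1.20.0, STAR and fastp were the tools. The sources used here name no version of STAR or fastp and do not say whether counting used strand. The counts deposited by the authors are raw counts per Ensembl gene, 1 column per library. The FPKM values deposited by the authors are scaled by library total and by a length per gene that the sources used here do not define.

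The counts were filtered with filterByExpr (minimum count 10), scaled by TMM and tested with edgeR 4.0.16 (quasi-likelihood, robust, R 4.3.3) in 1 model over 11 libraries (2 of EV and 3 of each other group). An adjusted p under 0.05 over all 13357 genes was called. The SE is the log2 fold change divided by the square root of F. FPKM entered limma 3.58.1 and counts DESeq2 1.42.0 as alternatives. The steps were tested on simulated data. The 11 libraries held 15938185 to 21263321 counts, and tests rest on the spread between replicates, not on depth. Replicates of a group were not identical.

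The 54 gene lists, the members and the comparison were chosen with earlier results of these data known. The rule names up to 12 protein-coding genes per direction with the largest called difference at a mean log2 CPM of at least 2. Their EV and Vkine libraries had to lie apart, as for up to 4 noncoding genes per direction (mean log2 CPM of at least 0). It also names up to 5 genes per direction of the change with LPS. In each list it names up to 4 called members with the smallest p, and any sole call in a direction. Other genes named were chosen from the lists after their values were seen. For a gene at 0 in both EV libraries, the fold was set against 3 counts over those 2 libraries (0.0827 CPM). Promoters came from a RefSeq table on GRCm38.p6, matched by symbol, with chromosome 18 left out. Motifs were also counted in other lists. Of 14 rising immediate early genes with an entry, 1 held the motif called CArG box and 1 held TGACGTCA, against 1.81% and 2.03% of all genes. The NF-kB site was present in 4 of these 14, against 5.14% of all genes. CCAAT was present in 7 of 25 falling ribosome biogenesis genes, against 41.1% of all genes. Replicate numbers do not pair the samples in the labels. A few list members are not reported by name here.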

Additional observations from a re-analysis of the deposited data

Results flagged for a closer look

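The size of the difference between Vkine and EV depended on LPS in 6577 genes by edgeR's test of the change (Benjamini-Hochberg adjusted p under 0.05). The genes below were picked for a large difference at rest or over the libraries, which enters the change, so their size here is partly set by that choice. All values here are log2 changes of the difference, with LPS less without.

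Among the genes with the largest rise at rest, the change was -5.75 for Fbp2, -5.30 for Cnpy1, -4.25 for Lpin1, -2.87 for Egr2, -2.71 for Fosb, -2.50 for Nr4a1, -2.38 for Gbp2b, -2.06 for Cxcl10, -1.94 for Apol7c, -1.74 for Fos, -1.24 for Egr1 and -1.23 for Tnf. Among those with the largest fall it was 3.89 for Smad9, 3.81 for Csf1r, 3.76 for Cx3cl1, 3.33 for Gadd45g, 3.26 for Id3, 3.04 for Id1, 2.95 for Csf2rb, 2.73 for Pheta1, 2.70 for Fabp5, 2.58 for Kif7, 2.51 for Dmpk and 2.32 for Fzd1.

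The largest changes over the 11 libraries added -4.87 for the desaturase gene Scd1, -3.33 for Ifitm6, -3.26 for Hpgds, 3.89 for Bcl2a1b and 3.64 for Atp5k. Reads of Bcl2a1b may be shared with its near-identical copies. Atp5k, a subunit of ATP synthase, was at 48.9 and 46.3 CPM in EV and 25.2, 21.4 and 7.41 CPM in Vkine (-1.39 ± 0.44, adjusted p = 0.0398 by edgeR), with Vkine replicate 3 below the other Vkine libraries.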

How the results depend on the processing

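The 24 genes with the largest rise or fall at rest kept direction and call under every alternative run: other size factors, other filters, DESeq2, limma on FPKM, the replicate block, a correction for GC content and length, a fit of the resting libraries alone, and each library left out. These 24 were picked for large called differences with libraries apart, so their stability is partly set by that choice. Against a fold of 1.5, 383 genes passed higher and 170 lower at rest, and 1118 upward and 1044 downward for the change with LPS. Among rises, 1 of 11 survival genes, 0 of 5 BMP and TGF-beta genes and 1 of 6 interferon receptor and JAK genes passed. The rises of fatty acid synthesis kept 6 of 11 and those of cytokines 5 of 9. Among falls, 1 of 10 NRF2 and iron genes and 0 of 7 MHC class I genes passed. With 1 library left out in turn, the resting counts ran from 1316 to 2866 higher and from 1432 to 3088 lower, and those of the change with LPS from 2638 to 3697 upward and from 2683 to 3400 downward. All other alternatives stayed within 1.5 times, DESeq2 with 2325 higher and 2311 lower. The replicate block gave 1956 higher and 2174 lower. Deviations of EV and Vkine samples at rest with the same number had correlations of 0.00966 for number 1 and 0.00146 for number 2. The deviations of the 2 EV libraries mirror each other, so these values cannot tell whether the numbers pair samples. Between resting Vkine and EV with LPS the correlation was 0.096 for number 1 and -0.101 for number 3. The correction for GC content and the resting fit without Vkine replicate 3 (3065 higher, 3204 lower) were chosen after seeing the data. With 2 EV libraries, calls of small or weakly expressed genes rest on a single library when either is left out.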

Other observations

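The following noncoding classes, which the gene lists do not hold, had a higher median log2 fold change than all genes (0.01). Of 313 transcripts of the class that awaits experimental support (TEC), 54 were called higher and 4 lower, with a median of 0.60. Of 44 sense intronic transcripts, which lie within introns of other genes, 11 were called higher and 2 lower (median 0.67). Of 337 long intergenic RNAs 42 were called higher and 26 lower (median 0.22). The shares called higher were 17.3%, 25.0% and 12.5%, against 16.9% of all genes. Those of the first and last class thus did not stand above all genes. Other noncoding classes had medians on either side, such as antisense RNAs (0.12 over 358 genes) and long RNAs of bidirectional promoters (-0.14 over 45).

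Chromosome 17 had the lowest median of the chromosomes, -0.23 on the log2 scale, with 251 of 689 genes called lower (36.4%). Relative to each gene's mean over all 11 libraries, the median over its genes was 0.08 in both EV libraries and -0.11, -0.16 and -0.22 in Vkine. With the trend with GC content and length removed, its median was -0.16. Of 241 windows of 8 Mb with at least 20 genes tested, the 4 with the lowest medians all lay on chromosome 17 (GRCm38), at 24 to 32, 32 to 40, 40 to 48 and 56 to 64 Mb, with -0.38, -0.32, -0.40 and -0.36. With the trend removed they were -0.23, -0.17, -0.25 and -0.21, and the second was then no longer among the 4 lowest. With LPS the medians of the same windows were 0.04, 0.02, 0.06 and 0.20. The cause was not tested. The gene lists are not split by chromosome here, and the part of this shift in the falls of their members was not tested.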
